A study of Lachancea waltii with 4 samples.

Results

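Some genes of a yeast genome are so alike that a microarray probe drawn from one is letter for letter the probe of another. The genes described here are the 78 of 5193 genes on a Kluyveromyces waltii array that carried such a probe, meaning that at least 1 of their probes was identical in sequence to a probe assigned to a different gene. Linked by shared sequence, they formed 31 families. There were 21 families of 2 genes, 7 of 3 genes, and 1 each of 4, 5 and 6 genes. The shared probes numbered 128 and carried 51 different sequences. Both probes were shared in 50 of the genes, and the other 28 had 1 shared probe and 1 probe of their own. Membership rested on probe sequence alone and used no measured value. The deposited files give identifiers and pair them with no gene names or functions, so that families are called here by the identifiers of their genes.

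On each array the study set Cy3-labelled total RNA against genomic DNA from that strain, labelled with Cy5. The single group comprised 4 arrays of K. waltii (now Lachancea waltii) strain NCYC 2644, harvested in mid-log growth from rich medium, with each array carrying its own RNA sample. Nothing in the labels states that these came from separate cultures, although the methods of the study describe biological replicates, and the SDs below cover the spread between arrays. Genomic DNA served on every array as the common reference.

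K. waltii branched from the baker's yeast lineage before the whole-genome duplication of that lineage, but like other yeasts it carries families of near-identical genes. In baker's yeast many such families lie close to the chromosome ends, where sequence is readily exchanged between chromosomes. A probe for such a gene binds the transcripts and the DNA of every member that matches it. RNA signal then reports the sum over the matching genes, while the ratio of RNA to genomic DNA reports an average per gene copy. Neither can be assigned to 1 member. "Level" below is the log2 ratio of RNA to genomic DNA relative to the median gene, and "genomic DNA signal" is the log2 Cy5 signal relative to the median gene or, for single probes, the median probe. The level of a family is the mean over its genes with all usable probes. Its genomic DNA signal is that of the shared probes alone.

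The arrays agreed closely over the members. Pearson's r of levels between arrays, across the 78 genes, which are not independent replicates, was 0.984 to 0.996 over the pairs of arrays, and 0.991 to 0.996 across all 5192 genes tested. The median subtracted RNA signal was 1191 to 1714 units and that of genomic DNA 7917 to 9640 units, and 0 spots were saturated. The software marked 5 of the 156 member probes as outliers on an array and these were left out, so that 73 members kept both probes and 5 kept 1. The shared probes did not stand apart in base composition, with a mean GC content of 42.7% against 42.0% for all gene probes.

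Genomic DNA signal separated these genes from most of the array. With limma's test against a 1.5-fold bound, 63 of the 78 genes (80.8%) lay above the median gene, whereas 9.07% of all 5192 genes did. The median over the 78 genes was 1.5, with a range of -0.71 to 4.10, against -0.01 for the 5114 other genes. Only 1 member, Kwal_33.15533, passed the test below the median gene, at -0.71 ± 0.06 (SD, n = 4; limma, adjusted p = 0.00409). Of the 100 genes with the strongest genomic DNA signal, 21 were members, against 1.5% of all genes tested, with genes that share a sequence counted separately. Families of 3 or more genes were called above more often, in 34 of 36 genes (94.4%), than families of 2, in 29 of 42 (69.0%). No test of that difference was made.

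If every matching gene gave an equal signal and the array were linear, a sequence held by several genes would stand at the log2 of their number. The signal of the 51 sequences did not follow that number closely. The 37 sequences held by 2 genes had a median of 1.01, against a log2 of 1, but ranged from -0.60 to 3.49. Those held by 3 genes had a median of 2.05 (8 sequences, 0.83 to 3.85), against 1.58. Beyond this the signal did not go on increasing. The sequences held by 4 genes stood at 1.86 and 2.19, those held by 5 at 1.82 and 1.89, and those held by 6 at 1.52 and 1.86, against log2 values of 2, 2.32 and 2.58. Across the 51 sequences, which share arrays and in part families and bases, Spearman's rho between number of genes and signal was 0.41 and Pearson's r against its log2 was 0.30. At the high end, 10 sequences exceeded the log2 of their number by more than 1, 8 of them held by 2 genes and 2 by 3. At the low end, 12 fell short of it by more than 0.5.

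**Figure D1:**
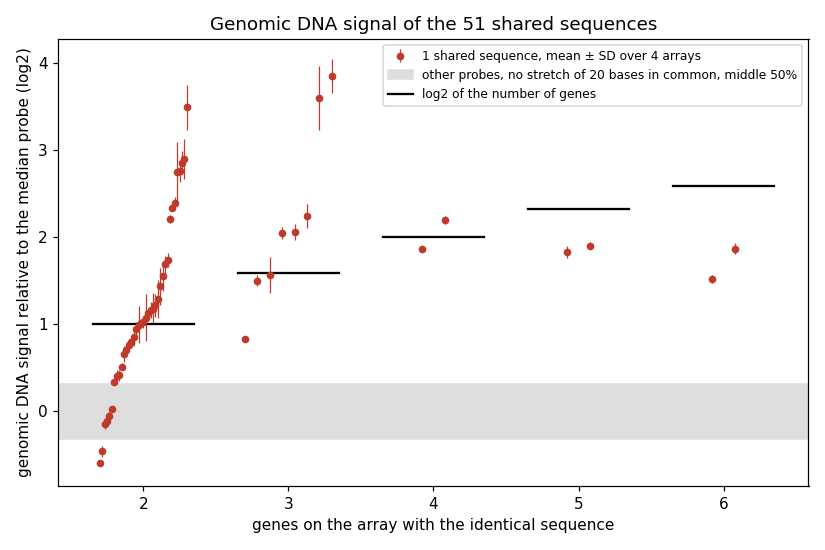
Genomic DNA signal (log2, relative to the median probe) of each of the 51 shared sequences against the number of genes that hold it; points are means over spots with the SD over 4 arrays, black lines the log2 of the number of genes, and the grey band the middle 50% of probes with no stretch of 20 bases in common with another gene. Sequences held by 2 genes spread from -0.60 to 3.49, and those held by 5 or 6 genes lie under their line.

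Levels of these genes lay mostly low. With limma's test against a 2-fold bound, 47 of 78 (60.3%) lay below the median gene, against 21.0% of all genes, and 3 (3.85%) lay above it, against 23.1%. Their median level was -1.36, against 0.02 for the other genes. Members were 1.5% of the genes tested. Of the 20 lowest levels on the array 12 belonged to members, and of the 100 lowest 23 did. Of the 100 highest 0 did, which is near that share. The 12 were the genes of the 6-gene and 5-gene families and Kwal_55.22252. Genes with the same shared sequences are repeat spots of them, so such counts are not of separate measurements. By family, every gene was called below the median gene past the 2-fold bound in 15 families. Every gene was called above it in 1, some genes were called in 6 and none in 9. Genes of a family differed in level by at most 0.70, in Kwal_18.2697 and Kwal_29.12875, of which the second was read by its own probe alone.

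The denominator entered these levels. In RNA signal alone 28 members (35.9%) lay below the median gene, against 19.5% of all genes, and 18 (23.1%) above it, against 23.6%. The median RNA signal of the members was -0.30. Of the 47 genes below the median gene in level, 28 were also below it in RNA, 17 were called neither way and 2 were above it. Of the 20 lowest RNA signals 0 belonged to members, near their share of 1.5% of the genes tested, and of the 100 lowest 6 did. Among genes called above in genomic DNA, 38 of 63 members (60.3%) had a low level, against 122 of 408 other genes (29.9%). Among genes not called above in it, the counts were 9 of 15 members (60.0%) and 922 of 4706 other genes (19.6%). In bulk RNA, fewer transcribed copies and less transcript per copy cannot be told apart.

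**Figure D2:**
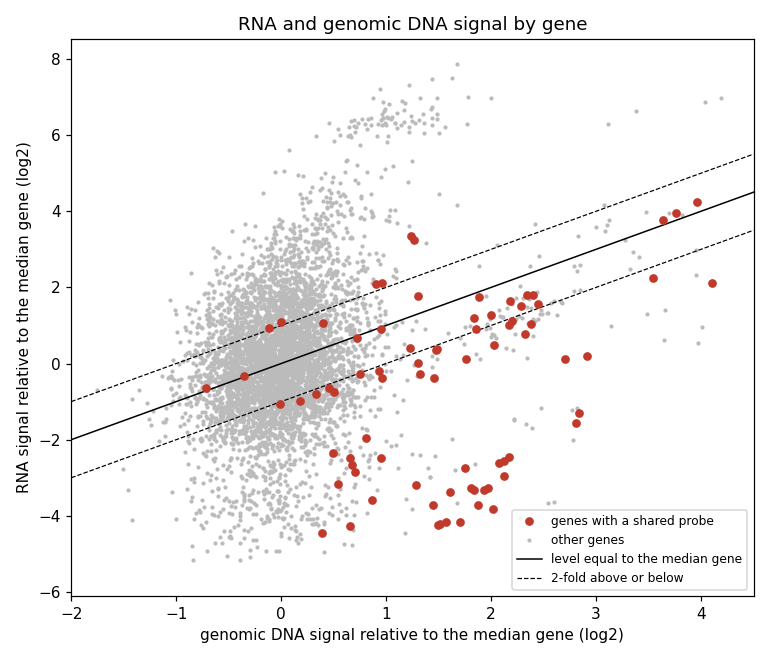
RNA signal against genomic DNA signal (log2, relative to the median gene) for each gene, red for the 78 genes with a shared probe and grey for the others, with lines at the level of the median gene and 2-fold from it; 13 genes, 0 of them members, lie beyond the axis limits of -2 and 4.5. A cluster of members at genomic DNA signals of 1.4 to 2.2 has RNA signals below -2.4, and others follow the line of the median gene up to genomic DNA signals near 4.

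The families of 6 and 5 genes had the lowest levels of all 31 under the main normalization. This order did not hold with loess, in the scanner log ratio or in RNA alone, where the lowest values were -5.98 in the family of Kwal_18.2697, -5.09 in that of Kwal_25.6625 and -4.36 in that of Kwal_27.9651. The 6-gene family (Kwal_11.654, Kwal_15.2641, Kwal_31.12910, Kwal_47.19372, Kwal_55.22259 and Kwal_60.24929) was read by 2 sequences with 54 of their 55 bases in common, each on all 6 genes, and had no other probe. Its level on arrays 1 to 4 was -5.79, -5.64, -5.69 and -5.93, a mean of -5.76 ± 0.13 (SD, n = 4), or 0.0184 of the median gene. All 6 genes lay below the median gene (limma, adjusted p = 5.69e-11 to 1.37e-10), between -5.88 and -5.62. The RNA behind this was faint, at 53 to 146.5 units per spot. Negative-control spots had medians of 27.5 to 37 units and highest values of 102 to 212 units. Of the 12 spots of the family, 12 were well above background in RNA on arrays 1 and 2, 6 on array 3 and 10 on array 4. Genomic DNA signal was 1.65, 1.74, 1.73 and 1.64 on the 4 arrays, a 3.23-fold excess over the median probe.

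The 5-gene family (Kwal_22.2746, Kwal_23.2767, Kwal_33.15651, Kwal_38.16359 and Kwal_47.19375) had levels of -5.44, -4.95, -5.24 and -5.15, a mean of -5.20 ± 0.21 (SD, n = 4). All 5 genes lay below the median gene (limma, adjusted p = 5.69e-11 to 4.66e-10). Its RNA signal was 70.5 to 292.5 units, and 10, 10, 9 and 10 of its 10 spots were well above background on arrays 1 to 4. The 4-gene family (Kwal_15.2646, Kwal_23.3703, Kwal_24.6612 and Kwal_39.16431) had levels of -4.33, -4.45, -4.85 and -4.93, a mean of -4.64 ± 0.30 (SD, n = 4), with all 4 genes below the median gene (limma, adjusted p = 1.04e-09 to 3.22e-08). Its RNA signal of 141.5 to 413 units was well above background on every spot, but the lowest spots were under the brightest negative controls. Under this normalization these 3 families did not overlap over the arrays, but with loess their order was reversed, at -3.98, -4.19 and -4.27 for 6, 5 and 4 genes. The highest array of the 6-gene family, at -5.64, lay under the lowest of the 5-gene family, at -5.44, and the highest array of the 5-gene family, at -4.95, lay just under the lowest of the 4-gene family, at -4.93.

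The families of 3 genes covered the middle of the range. Kwal_10.628, Kwal_45.16512 and Kwal_45.16514 had the strongest genomic DNA signal of all families, at 3.61, 4.11, 3.71 and 3.56 on arrays 1 to 4, a mean of 3.75 ± 0.25 (SD, n = 4) or 13.4-fold the median probe. Their RNA signal was as high, at 12731 to 45361 units per spot, so that their level was 0.18 ± 0.11 (SD, n = 4) and 0 of the 3 genes passed the test. That value held for the main normalization, and with loess it was -5.27, in the scanner log ratio -3.88 and with normexp -1.14. In RNA the family stood 3.93 above the median probe, against 0.18 in level.

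In 2 further families genomic DNA and RNA signal were both high. Kwal_1.407, Kwal_9.616 and Kwal_23.3713 had a level of -0.44 ± 0.14 with all probes. Their shared probe alone had a level of -0.14, a genomic DNA signal of 2.04 ± 0.07 and an RNA signal of 1.92. Kwal_1.414, Kwal_47.17030 and Kwal_55.19796 had a level of -0.65 ± 0.09 with all probes. Their shared probes had a level of -0.60, a genomic DNA signal of 2.12 ± 0.05 and an RNA signal of 1.53 (SD, n = 4). None of these 6 genes passed the 2-fold test. With loess, in the scanner log ratio and with normexp the family of Kwal_1.407 lay lower, at -3.36, -2.51 and -1.56, and that of Kwal_1.414 at -3.28, -2.50 and -1.75. The family of Kwal_44.16506, Kwal_54.19484 and Kwal_60.24937 had levels of -1.46, -0.74, -1.31 and -0.76, a mean of -1.07 ± 0.37 (SD, n = 4), and 0 of its 3 genes passed (limma, adjusted p = 0.372 to 1).

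In the other families of 3 genes every member passed the test below the median gene. Kwal_29.12878, Kwal_38.16372 and Kwal_55.19510 had levels of -2.0, -1.10, -1.60 and -1.27, a mean of -1.49 ± 0.39 (SD, n = 4; limma, adjusted p = 0.00078 to 0.0332), with a genomic DNA signal of 2.24. In RNA alone this family stood at 0.77, so its direction rested on the division by genomic DNA. Kwal_29.12878 no longer passed without array 1, 3 or 4, and Kwal_55.19510 without array 1 or 3 (limma, adjusted p = 0.0546 to 0.124). Kwal_23.5250, Kwal_26.8300 and Kwal_56.22670 had a level of -1.61 ± 0.11 (SD, n = 4; limma, adjusted p = 4.33e-06 to 0.000671) and a genomic DNA signal of 1.36. Kwal_23.6598, Kwal_41.16468 and Kwal_43.16494 were the lowest of this size, at -3.02, -2.81, -3.0 and -2.90, a mean of -2.94 ± 0.10 (SD, n = 4; limma, adjusted p = 7.34e-10 to 1.21e-08). Their sequence held by 3 genes had a genomic DNA signal of 0.83 ± 0.01 (SD, n = 4), under the 1.58 of 3 equal copies, and their sequence held by 2 genes one of 0.40 ± 0.06. In genomic DNA 1 of the 3 genes was called above.

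**Figure D3:**
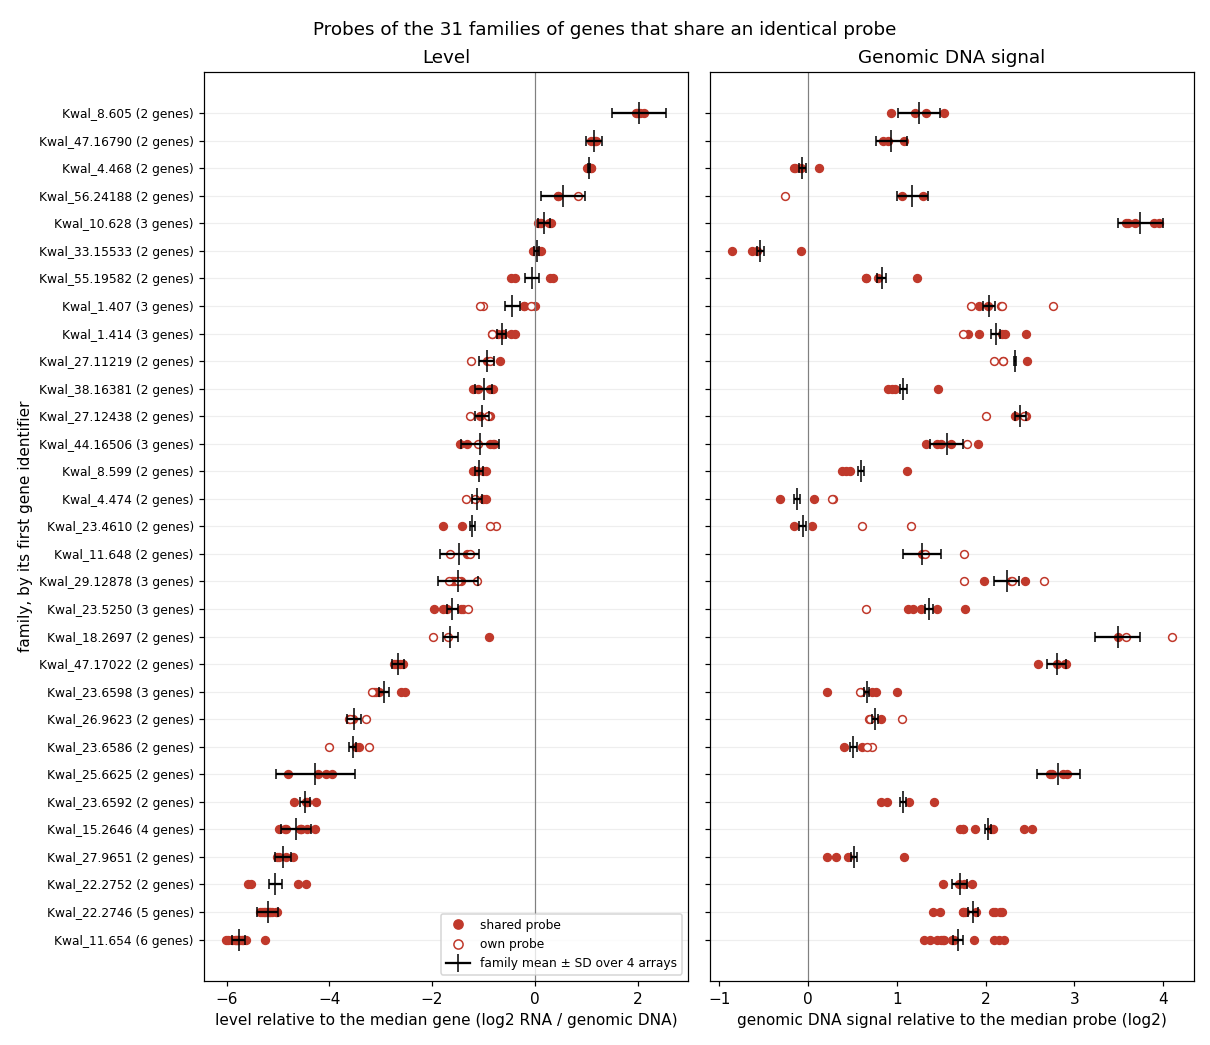
Level (left) and genomic DNA signal (right) on a log2 scale for each of the 31 families, ordered by level; filled points are shared probes, open points the own probes of members, each the mean of 4 arrays, and black bars the family mean (of its genes for level, of its shared probes for genomic DNA) ± SD over 4 arrays. Levels run from -5.76 in the 6-gene family to 2.03 in the family of Kwal_8.605, while genomic DNA signal runs from -0.54 to 3.75.

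Among families of 2 genes, Kwal_8.605 and Kwal_27.12835 had the highest level of all. On arrays 1 to 4 it was 1.52, 2.51, 1.62 and 2.45, a mean of 2.03 ± 0.53 (SD, n = 4), or 4.08-fold the median gene, and both genes passed (limma, adjusted p = 0.000561 and 0.000825). After loess within each array the value was -1.33, and in the log ratio of the scanner software it was -0.42, so the direction was not the same in every setting. The cause of this change was not tested. The RNA signal of the family averaged 7226, 27977, 8868 and 23897 units on the 4 arrays. Kwal_47.16790 and Kwal_47.16802 had a level of 1.15 ± 0.15 (SD, n = 4) and a genomic DNA signal of 0.94, close to the value of 1 for 2 equal copies, and Kwal_47.16802 passed the test (limma, adjusted p = 0.0244) whereas Kwal_47.16790 had an adjusted p of 0.0712. Without array 1, 2 or 3 Kwal_47.16802 did not pass (limma, adjusted p = 0.123, 0.0884 and 0.0628). The level of this family also changed sign, to -1.14 with loess and -0.49 in the scanner log ratio. Kwal_4.468 and Kwal_26.6883 followed at 1.03, 1.03, 1.08 and 1.07, with a mean of 1.05 ± 0.03 (SD, n = 4), and neither passed the 2-fold bound (limma, adjusted p = 0.104 and 0.711).

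The lowest levels in shared probes among families of 2 belonged to 3 pairs. Kwal_22.2752 and Kwal_55.22252 had a level of -5.05 ± 0.13 (SD, n = 4), Kwal_27.9651 and Kwal_28.12868 one of -4.90 ± 0.16, and Kwal_23.6592 and Kwal_48.19391 one of -4.47 ± 0.10. All 6 genes lay below the median gene, the highest adjusted p being 4.4e-10 (limma). The RNA of the first pair was 77 to 301.5 units per spot and that of the third 83.5 to 227.5 units. All their spots were well above background, but the lowest were under the brightest negative controls. The 2 sequences of the first pair disagreed more than in any other family, at -5.55 and -4.53, a gap of 1.02, although their genomic DNA signals of 1.73 and 1.69 were alike. For Kwal_27.9651 and Kwal_28.12868 the RNA was near background, at 43 to 120.5 units, and 1, 3, 1 and 1 of the 4 spots were well above background on arrays 1 to 4. A probe of Kwal_27.9651 was not well above background on any array, so that the level of this pair is poorly measured.

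High genomic DNA signal with only 2 genes on the array marked another 3 pairs. Kwal_18.2697 and Kwal_29.12875 stood at 3.44, 3.86, 3.26 and 3.39, a mean of 3.49 ± 0.26 (SD, n = 4) or 11.2-fold the median probe, from 1 usable spot. Their level was -1.65 ± 0.14 and both genes passed below the median gene (limma, adjusted p = 9.63e-06 and 0.0151), while in RNA alone the family stood at 2.19 above it. The shared probe of the pair gave -0.90, within 2-fold of the median, and the shared spot of Kwal_29.12875 was left out as an outlier, so its level of -2.0 was that of its own probe. Kwal_18.2697 did not pass without array 1 or 3 (limma, adjusted p = 0.0703 and 0.0697). Kwal_47.17022 and Kwal_55.22263 had a genomic DNA signal of 2.80 ± 0.11 (SD, n = 4), or 6.98-fold, and a level of -2.67 ± 0.12. In RNA alone this pair stood at 0.16. Kwal_25.6625 and Kwal_27.11201 had a genomic DNA signal of 2.82 ± 0.24 (SD, n = 4).

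The level of Kwal_25.6625 and Kwal_27.11201 varied most between arrays of any family, at -4.98, -3.57, -4.88 and -3.65 on arrays 1 to 4, a mean of -4.27 ± 0.76 (SD, n = 4). Both genes nonetheless lay below the median gene (limma, adjusted p = 1.36e-06 and 3.5e-06). The RNA of the pair averaged 260.2, 1324, 278.9 and 937.4 units on the 4 arrays, and all 4 spots were well above background on each. Arrays 2 and 4 were higher than arrays 1 and 3. That order held for the level of 13 of the 31 families and the reverse order for 3, against 19.8% and 26.8% of all genes. In RNA signal the counts were 14 and 2 families, against 19.7% and 20.6% of genes, and in genomic DNA 5 and 3, against 14.9% and 15.3%. Family means and single genes are unlike units, so these counts and shares are not directly comparable. The SD of a family's level over arrays was 0.03 to 0.76, with a median of 0.14.

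At the other end of genomic DNA signal lay pairs whose shared probes were no brighter than the median probe. The neighbouring genes Kwal_33.15533 and Kwal_33.15534 stood at -0.49, -0.57, -0.52 and -0.57, a mean of -0.54 ± 0.04 (SD, n = 4), below the median probe on every array although 2 genes held each sequence. Their level was 0.04 ± 0.05. Kwal_4.474 and Kwal_26.6878 stood at -0.12 ± 0.03 in genomic DNA and -1.12 ± 0.10 in level, with Kwal_4.474 passing below the median gene (limma, adjusted p = 0.0163) but not without array 3 or 4 (limma, adjusted p = 0.0647 and 0.0736). The pair Kwal_4.468 and Kwal_26.6883, described above for its level, stood at -0.06 ± 0.04. These last 2 families lie side by side on the same pair of contigs. Kwal_23.4610 and Kwal_47.19304 also gave -0.06 ± 0.04 in their shared probes.

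The 10 families of 2 outside these extremes of level and genomic DNA, that of Kwal_23.4610 among them, held 20 genes. Their levels ran from -3.54 to 0.55 with a median of -1.06, and 10 of the 20 genes lay below the median gene and 0 above it. Their shared genomic DNA signal ran from -0.06 to 2.39 with a median of 0.95, and 15 of the 20 genes were called above.

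Identical probes at different spots of an array served as a check of the measurement. For 48 sequences with more than 1 usable spot, the SD between spots of 1 sequence on 1 array had a median of 0.149 in level, 0.169 in genomic DNA and 0.271 in RNA, smaller in the ratio than in either channel alone. For the 35 sequences with 2 usable spots the median SD of level was 0.121. The probes of 3449 other genes whose 2 probes share no stretch of 20 bases had a median SD of 0.223 measured in the same way. In genomic DNA those values were 0.147 and 0.236. The difference of a spot from its sequence mean was itself repeatable in genomic DNA, with r of 0.75 to 0.89 between arrays across 121 spots, and less so in level, with r of 0.16 to 0.39. On any array it went together in RNA and genomic DNA, with r of 0.78 to 0.81. For the 35 sequences with 2 usable spots these differences are equal and opposite, so the 121 are not separate values. The widest gap between spots of a sequence was 0.78 in genomic DNA, seen in the families of Kwal_15.2646 and of Kwal_33.15533.

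Where a gene also had a probe of its own, the readouts of the shared and the own sequence could be compared. Both were usable in 25 genes. In level, 0 of the 25 differed past a 2-fold bound (limma), against 1.21% of all 4939 genes with 2 usable probes, and 0 did at an unadjusted p of 0.05. The median absolute difference was 0.28, against 0.23 over all genes, and 19 of 25 lay within 0.5. In genomic DNA 2 of the 25 differed, against 1.36% of all genes. The median absolute difference in genomic DNA was 0.21, against 0.30 over all genes.

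The differences in genomic DNA exceeded 2-fold and ran in opposite directions. Kwal_56.24190 gave 1.06 with its shared probe and -0.26 with its own, a difference of 1.31 ± 0.11 (SD, n = 4; limma, adjusted p = 0.00193). Kwal_23.4610 gave -0.16 with its shared probe and 1.16 with its own, a difference of -1.32 ± 0.12 (SD, n = 4; limma, adjusted p = 0.00156). Its partner Kwal_47.19304 differed in the same direction, by -0.56 ± 0.10, without passing. In Kwal_23.4610 the weaker signal came from the sequence that 2 genes hold. The next widest difference was -0.73 ± 0.12 in Kwal_1.407 (limma, adjusted p = 1). In level the widest were 1.07 ± 0.24 in Kwal_9.616, -1.02 ± 0.12 in Kwal_23.4610 and 0.80 ± 0.22 in Kwal_1.407.

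**Figure D4:**
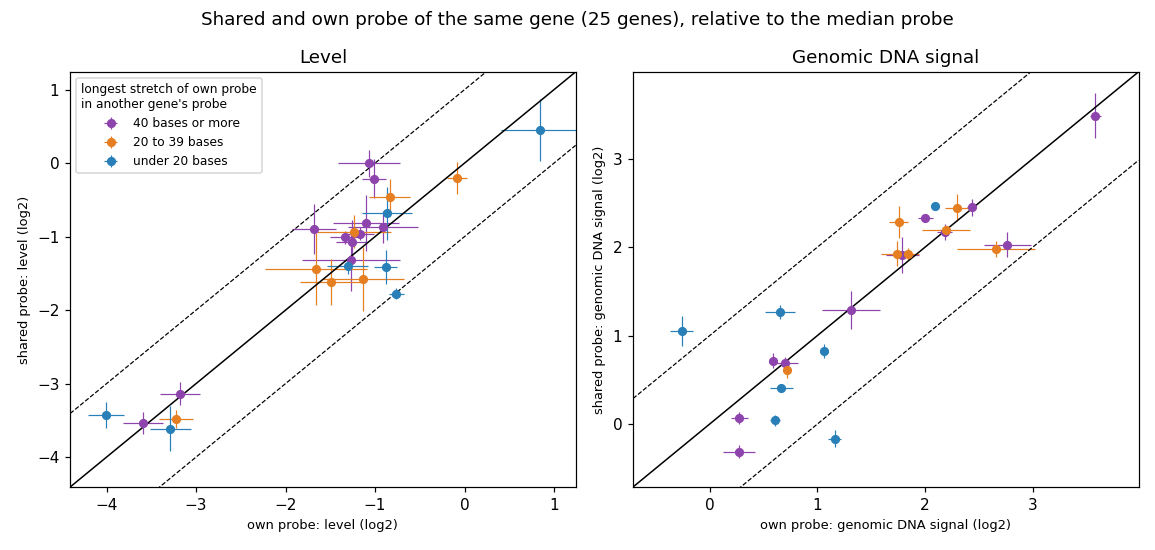
Shared probe against own probe of the same gene in level (left) and genomic DNA signal (right), log2 relative to the median probe, for 25 genes with the SD over 4 arrays; colours give the longest stretch that the own probe has in common with a probe of another gene, and dashed lines mark a 2-fold difference. Most genes lie near the diagonal, and only Kwal_56.24190 and Kwal_23.4610 lie well outside the dashed lines in genomic DNA.

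Most own probes were not free of family sequence either. Of the 25, 11 had a stretch of 40 bases or more identical to a probe of another gene, 7 one of 20 to 39 bases and 7 none of 20 bases. In 6 genes the own probe also overlapped the shared probe of the same gene by at least 20 bases. Own probes gave more than 0.5 in genomic DNA signal in 22 of 25 genes, and in 6 of the 7 with no such stretch. The median own signal was 1.79 with stretches of 40 bases or more, 1.84 with 20 to 39 and 0.67 with less.

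The members were gathered in certain places of the assembly. K. waltii identifiers are commonly read as a contig number before the point and an order along it after the point, which the files themselves do not state and which no annotation was used to check. On that reading 44 contigs held at most 11 array genes and 10 held 83 to 796. Of the 78 members, 37 lay on the small contigs, 17 among the 10 array genes nearest an end of a large one and 24 in the interior of a large one. Small contigs and contig ends together held 69.2% of the members, against 5.59% of the other genes. Members occurred on 25 of the 44 small contigs. No member lay inside a large contig in 16 families, every member did in 7, and 8 were mixed.

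Place went with both readouts in the other genes too. On small contigs 32 of 37 members (86.5%) were called above in genomic DNA, against 66 of 103 other genes (64.1%). At the ends of large contigs the counts were 14 of 17 (82.4%) and 38 of 183 (20.8%), and in the interior 17 of 24 (70.8%) and 304 of 4828 (6.30%). Low levels were found in 23 of 37 members (62.2%) and 42 of 103 other genes (40.8%) on small contigs. At contig ends these were 15 of 17 (88.2%) and 98 of 183 (53.6%), and in the interior 9 of 24 (37.5%) and 904 of 4828 (18.7%). The part of place in the low levels was not tested.

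**Figure D5:**
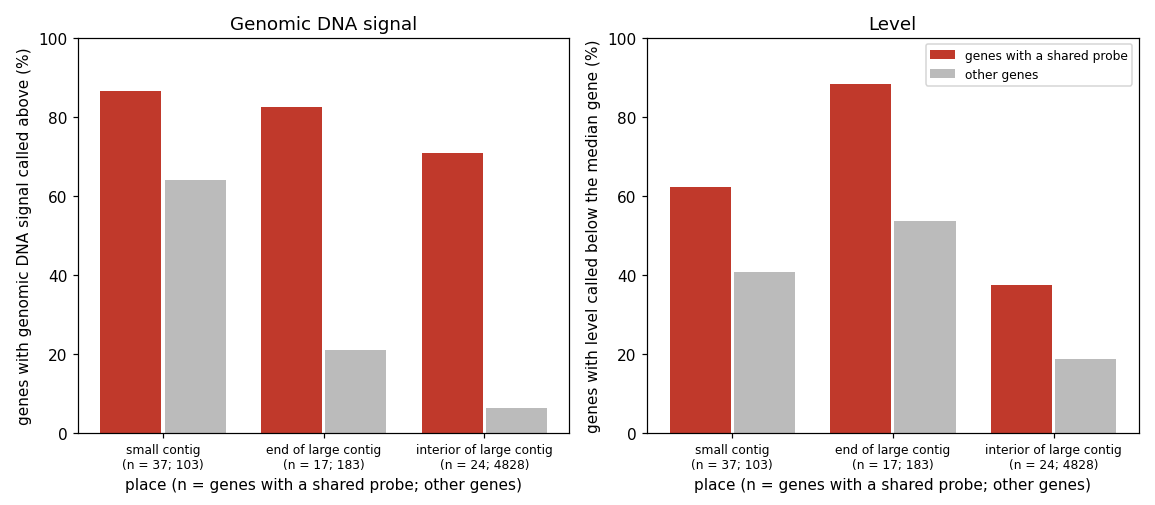
Percent of genes called above the median gene in genomic DNA signal (left) and below it in level (right), for genes with a shared probe (red) and other genes (grey) on small contigs, among the 10 genes nearest an end of a large contig, and in the interior of large contigs. Members have the higher bar in each place, for example 70.8% against 6.30% for genomic DNA in the interior.

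Families were also neighbours of each other. Members of 2 different families lay within 2 array genes of each other on 18 occasions counted by pair of families, and for 2 of these pairs it happened on 2 contigs. Several of these occasions were on small contigs, such as contigs 4 and 15 with 2 array genes and contig 38 with 5. There nearly any 2 genes lie this close. The number to be expected from place alone was not computed. Kwal_26.6878 and Kwal_26.6883 stood beside each other on contig 26, as their partners Kwal_4.474 and Kwal_4.468 did on contig 4. Kwal_23.6586 and Kwal_23.6592 were neighbours near the end of contig 23, as were their partners Kwal_48.19387 and Kwal_48.19391 on contig 48. In both cases neighbouring families differed in level, by more than their SDs over arrays, with -1.12 and 1.05 in the first and -3.54 and -4.47 in the second. Genes of the 6-gene family stood next to the 5-gene family on contig 47 and to the 4-gene family on contig 15. In 5 families both or 2 of the genes lay on 1 contig.

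High genomic DNA signal was not limited to identical probes. Outside the rule, 161 usable probes of 101 genes had a stretch of at least 20 bases, but not the whole probe, in common with another gene. Of these 101 genes 82 (81.2%) were called above in genomic DNA and 43 (42.6%) lay below the median gene in level, with medians of 2.10 and -1.06. Just outside, with 1 differing base, were Kwal_40.16444 and Kwal_47.16813, at genomic DNA signals of 3.51 ± 0.43 and 3.57 ± 0.37 and levels of 0.29 ± 0.20 and 0.51 ± 0.35 (SD, n = 4). With 2 differing bases Kwal_14.699 stood at levels of -4.36 and -4.55 with its probes, against -5.20 in the 5-gene family that it matched. Kwal_60.24923, also 2 bases from that family, stood at -5.39 and -5.31. Kwal_14.761 was 2 bases from a gene that is neither in that family nor a member, and stood at -1.36 ± 0.09. By class of probe, median genomic DNA signal was 1.5 for identical probes, 2.19 for stretches of 40 to 54 bases, 2.30 for 30 to 39, 1.61 for 20 to 29 and -0.02 for probes with less. Median RNA signal over spots was -0.74, 1.12, 1.06, 1.44 and -0.01 in the same order, lowest for identical probes. The medians of identical probes count a sequence again for each gene that holds it. The families with the most genes, which were faint in RNA, therefore weigh most in them. Whether identical probes lie below probes with less than 20 bases in common when repeat spots are merged was not tested.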

How the data were processed

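Scanner files of 4 arrays were used, 1 per sample, each with 10386 gene probes of 55 bases. The deposited files hold median intensity and median local background intensity per spot and channel, which the authors read from the scans with Feature Extraction (Agilent) version 10.1.1.1, per the file headers. They also hold a deposited log10 ratio of red over green after the dye normalization of that software, and a processed red intensity, both used only as alternatives. The authors' table of gene values was not used, since its rows match no probe column. Genome build is not given in the sources used here.

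Background was subtracted, and log2 of Cy3 over Cy5 was taken. Probes marked as outliers on any array (254) or without positive signal (1) were left out, giving 10131 probes and 5192 genes. Levels are medians over the probes of a gene. Tests used arrays after quantile normalization, while printed levels and SDs are those of arrays centred on their medians. Calls came from limma 3.58.1 in R 4.3.3 (intercept alone, treat), two-sided, with Benjamini-Hochberg adjustment over all genes at 0.05. The bounds were 2-fold for level, RNA and probe differences and 1.5-fold for genomic DNA signal. The steps were tested on simulated data. With 4 arrays their number limits the precision. Stretches in common were searched exactly, from 20 bases, on the same strand.

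All members of families of 3 or more genes could be named. Of families of 2, those with the 3 highest and 3 lowest shared levels, the same in genomic DNA, and the genes with the 3 widest gaps between shared and own probe in each were named, and up to 4 near-identical genes. Kwal_33.15533 as the only member called below in genomic DNA, Kwal_47.19304, Kwal_60.24923, and the families compared as neighbours were named after their values were seen. Members and lists were chosen with earlier results of these data known. Alternatives covered background, normalization, bounds, outlier spots, dim probes, shared probes alone and each array left out.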

Additional observations from a re-analysis of the deposited data

Results flagged for a closer look

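Of 65 values by family or spot spread that were examined over the 4 arrays, 1 had an array set far from the others. For Kwal_26.9623 and Kwal_26.9632 the shared genomic DNA signal was 0.71 on array 4 and 0.77, 0.78 and 0.77 on arrays 1 to 3, the gap being 0.894 of the whole range. The range itself was small, and chance sets apart about 1 such group in 20.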

How the results depend on the processing

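The count of members with high genomic DNA signal, 63 in the report, was 62 to 63 without each array in turn and 51 to 73 over the other 6 settings. The count of low levels, 47, was 41 to 45 without each array and 28 to 67 over the other 11 settings, the lowest being 28 with RNA signal alone. The share of low levels over all genes moved as well. It was 19.5% with RNA signal alone (28 members), 8.99% with loess (67 members) and 46.7% in a test against 0 (63 members). The 3 high levels were the least stable: 2 to 4 without each array, 0 with loess within each array, 0 with the log ratio of the scanner software, 0 at a 4-fold bound, 10 in a test against 0 and 18 with RNA signal alone. With normexp 2 were called, of which 0 were among the 3. Over all genes, 1201 were high in the report. That count was 262 with loess, 541 with the scanner log ratio and 500 at a 4-fold bound. It was 2404 in a test against 0, 1225 with RNA signal alone and 1228 with normexp. Of the 50 members called in level, 41 kept their call without each array in turn. Normexp lowered the median genomic DNA signal to 2920 to 3635 units. Members differing between shared and own probe in level, 0 in the report and 0 without each array, numbered 14 against 0, 2 at a 1.5-fold bound and 1 with outlier spots kept. In genomic DNA there were 2, also without each array, and 15 in a test against 0. For genomic DNA signal and probe differences the shares over all genes at the other settings are not given here. Those member counts therefore lack a background. The median SD between spots was 0.130 to 0.176 and the median shared genomic DNA signal 1.46 to 1.5 without each array.

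Of 16 families with every gene called on 1 side, the level changed sign in 5 of 192 values. These were Kwal_8.605 and Kwal_27.12835 with loess (-1.33) and with the scanner log ratio (-0.42), and with RNA alone Kwal_29.12878 and its family (0.77), Kwal_18.2697 and Kwal_29.12875 (2.19) and Kwal_47.17022 and Kwal_55.22263 (0.16). Over all 31 families 4 changed sign with loess and the same 4 with the scanner log ratio, among them Kwal_47.16790 and Kwal_47.16802 with 1 gene called, 2 changed with normexp and 12 with RNA alone. RNA alone leaves out the genomic DNA term by construction. For loess and the scanner log ratio the cause was not tested. No paired analysis was possible because all arrays form 1 group. Low RNA signal limits the 6-gene family and Kwal_27.9651 with Kwal_28.12868. It also touches the 5-gene family and Kwal_23.6592 with Kwal_48.19391. On array 4 their spots, at 133 to 211 and 136 to 168 units, all lay under the brightest negative control of 212 units. The 4-gene family was touched in part. Its lowest spots, at 177 units on array 4 and 141.5 on array 3, lay under the brightest negative controls of 212 and 147.5 units.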
